A study of Mus musculus with 20 samples.

Results

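Gap junction connexins were followed through the microvasculature of the mouse kidney cortex. The genes were the 6 rows of the deposited count table with the symbols Gja1, Gja4, Gja5 and Gjc1, grouped as connexins of the vascular wall, and Gjb1 and Gjb2, grouped as connexins of the tubules, of 34255 genes in all. They were chosen by name and not by a measured value, although earlier results of these data were known.

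The samples came from healthy, untreated, young adult male wild-type mice of the C57BL6/OlaHsd strain. Laser microdissection of cryosections gave pieces of arterioles and glomeruli, and of peritubular capillaries and post-capillary venules, and sections of whole kidney served as the reference, with 4 libraries in each of the 5 groups. The cut pieces held supporting cells and bordering tubule besides endothelium, and less area was collected for arterioles and capillaries than for the rest. Arterioles, glomeruli and venules were cut from a hematoxylin-stained slide, and capillaries from another slide stained with a fluorescent lectin. Slide and stain therefore cannot be told apart from the tissue in any comparison with capillaries. Microdissected RNA went through a low-input protocol with more PCR cycles than whole kidney RNA, so this step and the tissue cannot be told apart in any comparison with whole kidney. Each library carries its group and its column number, and values follow the order 93, 96, 98 and 100. Each sample is labelled a biological replicate, and tissue was collected mouse by mouse, but which mouse gave which library was not named. The p-values rest on the spread among these libraries.

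Connexins are membrane proteins that assemble into hexameric half-channels, and half-channels of neighbouring cells dock into gap junctions through which ions and small molecules pass. In vessel walls, Gja4 (Cx37), Gja5 (Cx40) and Gja1 (Cx43) couple endothelial cells to each other and to smooth muscle, and Gjc1 (Cx45) is the connexin of smooth muscle and of mural cells. Gjb1 (Cx32) and Gjb2 (Cx26) are connexins of epithelia, which join hepatocytes and other polarised cells.

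All 6 genes encode the same docking fold, so the coding stretches below are shown to make clear how alike and how different they are. Each is the codon run of the first extracellular loop, from the first to the third of its conserved cysteines, read from 1 coding transcript of each gene in GENCODE M21, with the cysteine codons in capitals.
Gja1: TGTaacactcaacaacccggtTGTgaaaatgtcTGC
Gja4: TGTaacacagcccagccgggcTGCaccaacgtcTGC
Gja5: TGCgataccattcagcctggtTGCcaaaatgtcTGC
Gjc1: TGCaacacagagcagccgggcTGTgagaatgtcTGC
Gjb1: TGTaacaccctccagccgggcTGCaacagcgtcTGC
Gjb2: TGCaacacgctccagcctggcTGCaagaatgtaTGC
Over these 36 bases the pairs shared between 23 (63.9%, Gja4 and Gja5) and 31 bases (86.1%, Gja4 and Gjb1). The whole coding sequences ran from 226 codons in Gjb2 to 396 in Gjc1. The libraries read the 3′ ends of transcripts, where the genes differ. None of the 451 overlapping 50-base words in the last 500 bases of each gene's transcript occurred in a transcript of another gene.

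In the GENCODE M21 annotation of GRCm38, Gja4 lies at chr4:127311421-127314039 on the minus strand, Gjc1 at chr11:102799579-102819700 on the minus strand and Gja1 at chr10:56377330-56402513 on the plus strand. Gjb1 lies at chrX:101376378-101385629 on the plus strand and Gjb2 at chr14:57098600-57104702 on the minus strand, and none of these 5 protein-coding genes shares an exonic base with another gene. Gja5 spans chr3:96904693-97077416 on the plus strand and overlaps other genes, among them Gpr89 and the antisense genes 9230114J08Rik and 4930573H18Rik, and 165 (2.87%) of its exonic bases are shared with other genes. Whether counting used the strand was not given in the sources used here, and Gja5 reads in that stretch cannot be told from theirs.

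The 20 libraries held between 4639090 and 12283098 counts. The smooth muscle and podocyte lists followed the labels of arterioles and glomeruli, but not all lists did. The 10 mesangial and pericyte genes took 0.548% of counts in arterioles and 0.199% in glomeruli. The 10 arterial endothelial genes took 0.146% and 0.143%. The 12 smooth muscle genes took 2.69% of counts in arterioles (1.96 to 3.23) and at most 0.373% in any other library, and the 11 podocyte genes took 1.18% in glomeruli (1.05 to 1.32) and at most 0.156% elsewhere. The 15 pan-endothelial genes took 0.412% in arterioles and 0.458% in glomeruli, but 0.0686% in peritubular capillaries (0.0499 to 0.0858) and 0.13% in venules (0.0953 to 0.160), against 0.0615% in whole kidney (0.0566 to 0.0663). The 13 proximal tubule genes took 7.78% of counts in peritubular capillaries (6.74 to 8.74), 4.62% in whole kidney and 2.92% in venules, against 0.960% in arterioles and 0.962% in glomeruli. In such samples, fewer cells of a type and less RNA per cell cannot be told apart. All 11 marker lists had each of their genes detected in at least 1 library of every group.

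Gja4, a connexin of arterial endothelium, was highest in arterioles and next in glomeruli. Its level was 629.7, 1291, 570.0 and 792.0 CPM (counts scaled to library size by the trimmed mean of M-values, TMM) in arterioles, and 156.6, 121.5, 135.4 and 150.2 in glomeruli. Whole kidney stood at 5.67, 7.72, 8.09 and 10.1 CPM. All 4 arteriole libraries lay above all glomerular libraries, and all 4 glomerular libraries above all whole kidney libraries. The mean was 821 ± 327 CPM in arterioles, 141 ± 15.7 in glomeruli and 7.90 ± 1.82 in whole kidney (SD, n = 4), which is 104-fold and 17.8-fold the whole kidney mean.

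Against whole kidney, the fit across all genes (edgeR quasi-likelihood test, with the Benjamini-Hochberg adjusted p given as FDR) called a gene when FDR was under 0.05 and the log2 fold change was past 1. Gja4 rose in arterioles (log2 fold change 6.70, SE 1.13, FDR 7.02e-05) and in glomeruli (4.15, SE 1.00, FDR 0.0118). It was 1 of 6 connexins called higher in arterioles, where 5.78% of the 13813 genes tested were, and 1 of 6 in glomeruli, where 1.59% were higher and 3.06% were called in either direction. The glomerular call was lost without whole kidney 93 (FDR 0.0636) or whole kidney 98 (FDR 0.0514), with a log2 fold change of 4.02 and 4.16. In arterioles the call held in all 8 fits that left out 1 library (FDR 0.000122 to 0.00107).

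**Figure D1:**
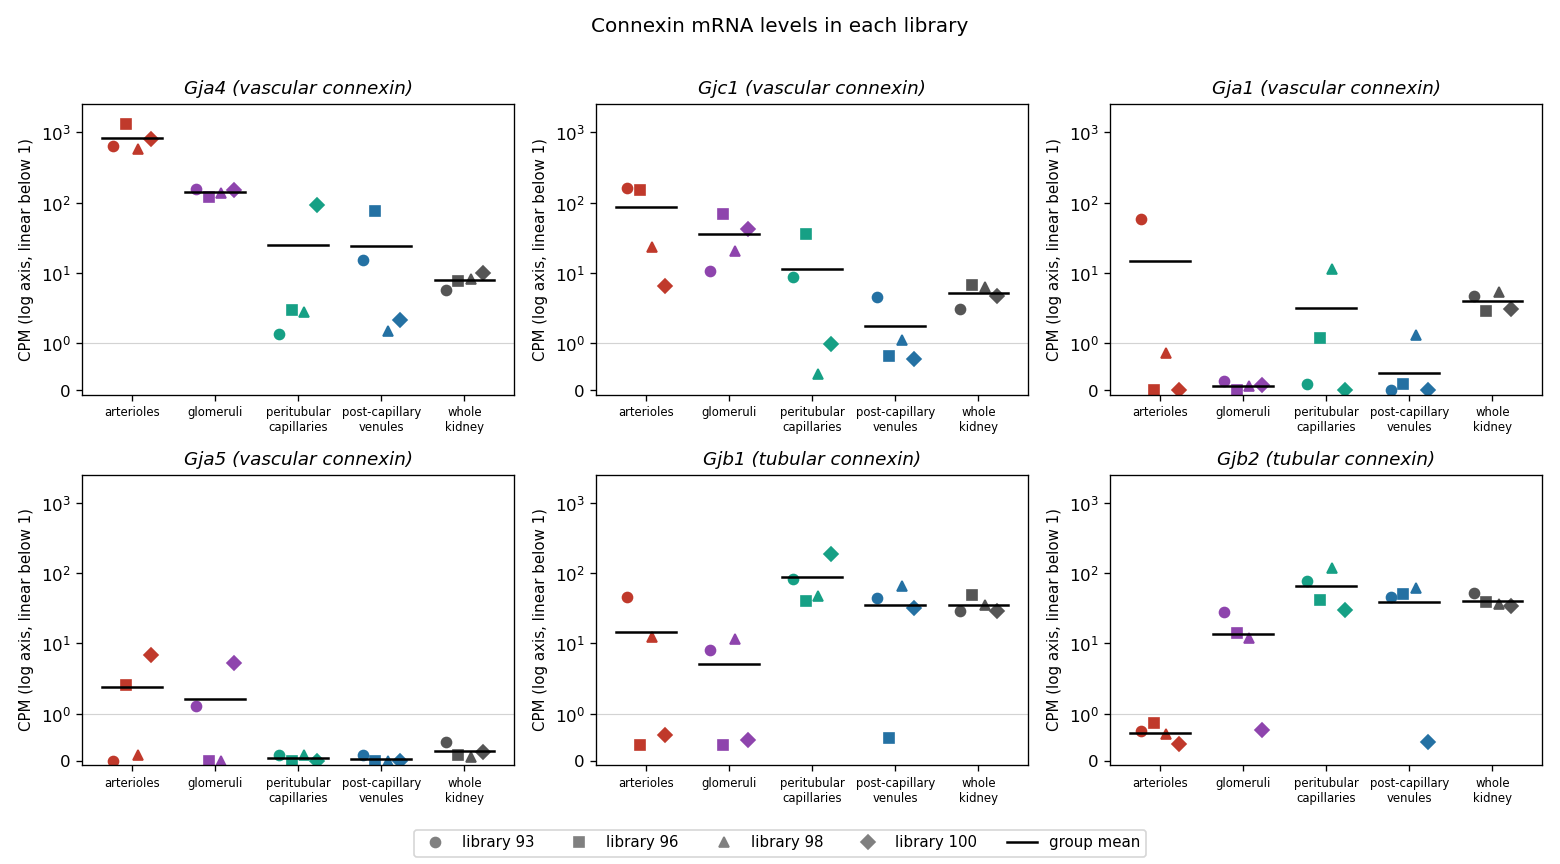
Each panel plots 1 connexin. The vertical axis is CPM on a log scale that is linear below 1, points are the 4 libraries of each group and the line is the group mean. Gja4 falls from arterioles (570.0 to 1291 CPM) to glomeruli (121.5 to 156.6 CPM), Gjb2 is under 1 CPM in all 4 arteriole libraries, and the other connexins scatter widely within groups.

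Peritubular capillaries and venules were not uniform for Gja4. Capillary libraries held 1.37, 2.95, 2.80 and 93.7 CPM, and venule libraries 15.1, 76.8, 1.48 and 2.14. Capillary 100 and venule 96 stood far above the rest of their groups, and the other libraries lay on both sides of whole kidney. The log2 fold change against whole kidney was 1.67 in capillaries (SE 0.907, FDR 0.467) and 1.60 in venules (SE 0.904, FDR 0.668). Without capillary 100 it became -1.74 in capillaries, and without venule 96 it became -0.33 in venules. No connexin was called in either group, where 0.0941% and 0.224% of genes were. At an unadjusted p under 0.05 the edgeR fit listed 1719 and 1293 of the 13813 genes and none of the connexins there.

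In capillary 100 the 10 arterial endothelial genes took 0.0108% of counts (95% Wilson interval 0.0101 to 0.0116), against 0.00362 to 0.00724% in the other capillary libraries. In venule 96 they took 0.0141% (0.0133 to 0.0149), while venule 100 held 0.0147% with a Gja4 level of 2.14 CPM. Smooth muscle genes took 0.0731% in capillary 100 and 0.168% in venule 96 (0.0712 to 0.0750 and 0.165 to 0.171), the highest share of each group. The part of these cells in the Gja4 level was not tested.

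Among the microdissected groups, Gja4 in arterioles was 32.6-fold the capillary mean (log2 fold change 5.03, SE 1.07, FDR 0.00144) and 34.4-fold the venule mean (5.10, SE 1.08, FDR 0.00302). Calls at FDR under 0.05 were made for 11.2% (6.22% higher) and 4.38% (2.5% higher) of the 12179 genes in these comparisons. Arterioles were 5.82-fold the glomerular mean with no overlap, but the test did not pass (2.54, SE 0.957, FDR 0.146). That comparison depended on the fit, with FDR 0.00675 without the filter on low counts, 0.00577 in the version 4 form of the test, 0.0461 with DESeq2 and 0.00224 with only these 8 libraries. Calls were made for 2.19% of genes there. The 10 arterial endothelial genes took 0.146% of counts in arterioles and 0.143% in glomeruli. Smooth muscle genes took 2.69% and 0.305%, and the 10 mesangial and pericyte genes 0.548% and 0.199%. The part of these cells in the Gja4 difference was not tested.

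Glomeruli against capillaries gave a Gja4 log2 fold change of 2.49 (FDR 0.135), and 5.88 (FDR 0.000268) without capillary 100. With capillary 100 kept, it passed without the filter (FDR 0.0106) and in the version 4 form (0.0137). It also passed with the column number as a block (0.0271), but not with other size factors, DESeq2, all 20 libraries or only these 8. Glomeruli against venules gave 2.55 (FDR 0.217), and 4.48 (FDR 0.0265) without venule 96. With venule 96 kept, that comparison passed only without the filter (FDR 0.0253) and in the version 4 form (0.0438). All 4 glomerular libraries lay above every capillary and venule library. Calls were made for 4.49% and 1.22% of genes, and capillaries against venules, where 0.411% were called, differed by 0.07 (FDR 0.996). Set against the mean of the other 3 compartments, Gja4 rose in arterioles by 4.22 (SE 0.676, FDR 2.33e-05), where 8.11% of genes were called higher. It held in all 16 fits that left out 1 library (FDR 2.43e-08 to 0.000156), and its level was above 10 CPM in all 4 arteriole libraries.

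Gjc1, the connexin of smooth muscle and mural cells, was uneven within arterioles. Arterioles held 163, 153, 23.2 and 6.60 CPM, glomeruli 10.6, 69.9, 20.8 and 42.2, and whole kidney 3.04, 6.68, 6.24 and 4.63. Arterioles 93 and 96 lay above every other library, whereas arteriole 100 lay within the whole kidney range, just under its highest library. All glomerular libraries lay above whole kidney. Capillaries held 8.70, 36.1, 0.35 and 0.98 CPM and venules 4.59, 0.73, 1.11 and 0.67.

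The Gjc1 mean was 86.6 ± 83.2 CPM in arterioles, 35.9 ± 26.2 in glomeruli, 11.5 ± 16.8 in capillaries, 5.15 ± 1.66 in whole kidney and 1.78 ± 1.89 in venules (SD, n = 4). Neighbours in this order overlapped. Arterioles against whole kidney gave a log2 fold change of 4.07 (SE 1.45, FDR 0.0582), which passed with other size factors, the version 4 form, DESeq2, only these 8 libraries, or without arteriole 98 or 100 (FDR 0.000631 to 0.0499). Glomeruli against whole kidney gave 2.80 (SE 1.37, FDR 0.328), and 2.7 (FDR 0.0159) with only these 8 libraries.

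Arterioles lay above every venule library for Gjc1, at 48.8-fold the mean, with FDR 0.0553 (log2 fold change 5.58, SE 1.73). It passed with other size factors (FDR 0.0371), the version 4 form (0.00721), DESeq2 (2.39e-05), all 20 libraries in the fit (0.0220), and without arteriole 98 (0.0455) or arteriole 100 (0.0292). Against the other 3 compartments together Gjc1 rose in arterioles (3.25, SE 1.05, FDR 0.0383). This call was lost in 9 of 16 fits that left out 1 library, among them those without arteriole 93 (2.72, FDR 0.133) or arteriole 96 (2.85, FDR 0.126). It was also lost in a fit with the column number as a block (2.83, FDR 0.134). Smooth muscle genes took 3.23, 2.90, 2.66 and 1.96% of counts in the 4 arteriole libraries. Arteriole 100 had the lowest share of them and the lowest Gjc1 level, while arterioles 96 and 98 had close shares and unlike Gjc1 levels. The part of smooth muscle in the Gjc1 level was not tested.

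Gja1, the most widely used connexin of the body, was not higher in the vascular pieces as a group. Arteriole libraries held 272, 0, 7 and 0 counts, capillaries 1, 8, 99 and 0, venules 0, 1, 7 and 0 and glomeruli 2, 0, 1 and 1. Whole kidney held 47, 25, 77 and 32 counts. Arteriole 93 (58.0 CPM) and capillary 98 (11.5 CPM) stood above the whole kidney range of 2.88 to 5.28 CPM, and every other microdissected library lay below it. A count of 0 still allowed up to 3 counts, which is 0.331 to 0.587 CPM in the libraries with 0, counting error only.

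No Gja1 difference from whole kidney passed. The log2 fold change was 1.88 in arterioles (SE 2.09, FDR 0.559), -0.31 in capillaries (SE 2.03, FDR 0.984) and -3.48 in venules (SE 2.25, FDR 0.803). Glomeruli lay below whole kidney without overlap (-5.16, SE 2.41, unadjusted p 0.0393, FDR 0.290), with FDR 0.00551 in a fit of only these 8 libraries. Without arteriole 93 the arteriole value became -3.83. The filter on low counts left Gja1 out of the fit of the microdissected libraries. With all 20 libraries in the fit it was called higher in arterioles against the other 3 compartments (4.86, FDR 0.0245), on 272 of 279 arteriole counts from arteriole 93. With such low and uneven counts, the level of Gja1 here could not decide its grouping with the vascular connexins.

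Gja5, a connexin of arterial endothelium and renin-producing cells, was at the limit of detection. Arterioles held 0, 16, 1 and 38 counts, glomeruli 13, 0, 0 and 47, and whole kidney 4, 1, 1 and 2. All capillary and venule libraries held 0 or 1 count. Only arterioles 96 and 100 and glomerular 93 and 100 had 10 counts or more. The log2 fold change against whole kidney was 3.51 in arterioles (SE 1.92, FDR 0.194) and 2.97 in glomeruli (SE 1.87, FDR 0.534), with overlap in both, and 3.71 for arterioles against the other 3 compartments (SE 1.45, FDR 0.0867; FDR 0.0407 with all 20 libraries in the fit).

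The renin cell genes Ren1 and Akr1b7 took 0.139% of counts in glomeruli (0.0934 to 0.199) and 0.000632% in arterioles (0.000295 to 0.00141), against 0.00580% in whole kidney. By quantitative RT-PCR, however, the paper found Akr1b7 alike in arterioles and glomeruli and did not keep it as a glomerular marker. Glomerular 100, with 47 Gja5 counts, had the highest renin cell share (0.199%, 95% Wilson interval 0.195 to 0.202), but glomerular 96, with 0 counts, had the next highest (0.168%, 0.165 to 0.171). Arteriole 100, with 38 Gja5 counts, had 0.000417% (0.000287 to 0.000607).

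Gjb2, an epithelial connexin, moved opposite to Gja4. Arterioles held 0.64, 0.80, 0.56 and 0.36 CPM, from 3, 5, 5 and 2 counts. Whole kidney held 52.0, 38.5, 36.8 and 33.7 CPM, capillaries 76.2, 40.9, 117 and 30.1, venules 45.1, 49.8, 61.9 and 0.40, and glomeruli 27.9, 14.3, 11.8 and 0.66. Apart from venule 100 and glomerular 100, every library outside arterioles stood at 11.8 CPM or more. The means were 66.1 ± 39.4 CPM in capillaries, 40.3 ± 8.10 in whole kidney, 39.3 ± 26.9 in venules, 13.7 ± 11.2 in glomeruli and 0.591 ± 0.186 in arterioles (SD, n = 4). Neighbours in this order overlapped.

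Gjb2 fell in arterioles against whole kidney (log2 fold change -6.06, SE 1.47, FDR 0.00563), to a mean 68.1-fold lower. It was 1 of 6 connexins called lower there, against 5.5% of all genes (11.3% in either direction). It also fell against capillaries (-6.76, SE 1.82, FDR 0.0119) and venules (-6.02, SE 1.76, FDR 0.0404), where 4.98% and 1.87% of genes were called lower, though arterioles overlapped with venule 100. The calls against whole kidney and capillaries held in every fit that left out 1 library (FDR 0.0101 to 0.0181 and 0.0133 to 0.0371). The call against venules was lost in 7 of 8 such fits, with all 4 arterioles and venules 93, 96 and 98 among the libraries left out (FDR 0.0623 to 0.0867). It was also lost with other size factors (0.0502), without the filter (0.0564) or with the column number as a block (0.104).

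Arterioles and glomeruli differed in Gjb2 by -4.50 (SE 1.64, FDR 0.135), with FDR 0.00509 under DESeq2 and 0.0455 with all 20 libraries in the fit. Glomeruli lay below all whole kidney libraries, yet the test did not pass (-1.56, SE 1.19, FDR 0.678). Against the other 3 compartments Gjb2 fell in arterioles (-5.76, SE 1.67, FDR 0.0200), where 3.23% of genes were called lower. It rose in capillaries (3.26, SE 1.05, FDR 0.0491), where 4.3% were called higher and 7.22% in either direction. In a fit with the column number as a block, neither passed (arterioles -5.30, FDR 0.0554, and capillaries 3.64, FDR 0.0520). The capillary call was lost in 12 of 16 fits that left out 1 library, in each without a glomerular, capillary or venule library (FDR up to 0.178). In glomeruli and venules 3.79% and 0.55% of genes were called against the other 3, and no connexin was.

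Gjb1, the other epithelial connexin, gave no call in the main fits. Capillaries held 81.0, 40.6, 47.2 and 185 CPM, whole kidney 29.2, 49.3, 35.1 and 28.5, and venules 43.9, 0.49, 64.8 and 32.3. Arterioles held 45.4, 0.32, 12.1 and 0.54 CPM and glomeruli 8.11, 0.33, 11.5 and 0.44. Both groups split between libraries near or above 8 CPM and libraries under 1 CPM. All glomerular libraries lay below whole kidney and capillaries, without a call (-2.80, SE 1.38, FDR 0.332, and -4.12, SE 1.67, FDR 0.158), although the second passed in the version 4 form, DESeq2 and the fit of only these 8 libraries (FDR 0.0119 to 0.0377). Arterioles against whole kidney gave -1.28 (SE 1.31, FDR 0.521), and capillaries against whole kidney 1.32 (SE 1.31, FDR 0.812). Capillaries against the other 3 compartments gave 2.68 (SE 1.09, FDR 0.132). That comparison passed in the version 4 form (FDR 0.0106) and with the column number as a block (0.0329).

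The proximal tubule list took 0.677% of counts in arteriole 93, the library with 45.4 CPM of Gjb1, and 1.58% in arteriole 100 (95% Wilson intervals 0.671 to 0.684 and 1.57 to 1.59), which held 0.54 CPM. Arteriole 93 was also the library with the high Gja1 level. The part of bordering tubule in the Gjb1 level was not tested.

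**Figure D2:**
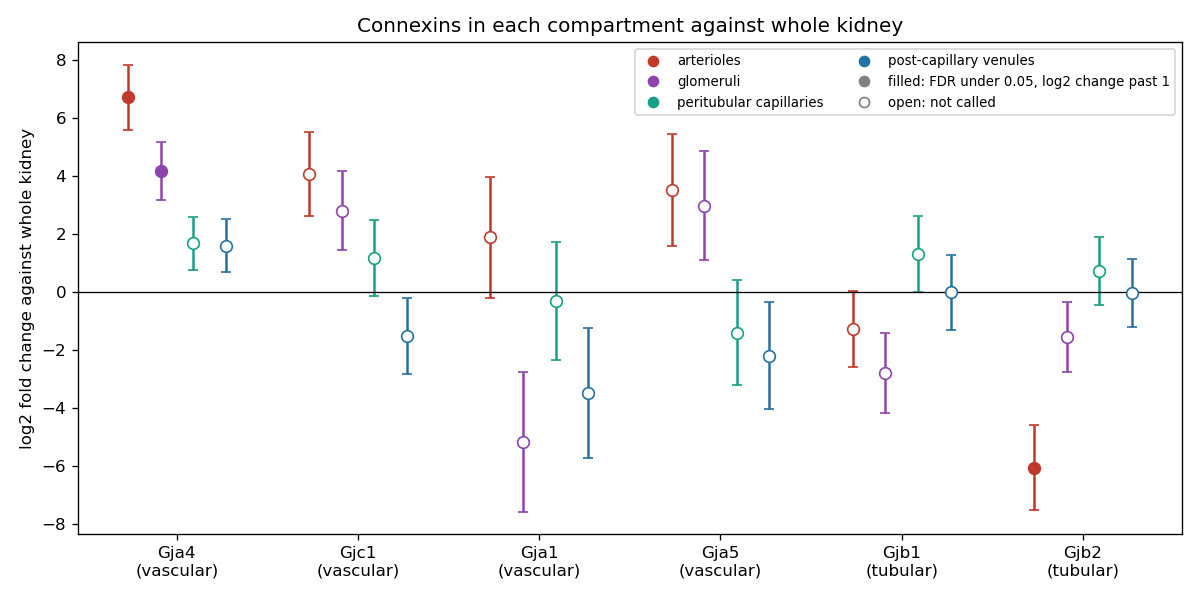
The vertical axis is the log2 fold change of each connexin in each compartment against whole kidney, bars are standard errors, and filled points are the called genes. The filled points are Gja4 in arterioles (6.70) and glomeruli (4.15) and Gjb2 in arterioles (-6.06).

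The same 300 bases around the transcription start are shown for the 2 connexins whose arteriolar level was called in opposite directions. They are from RefSeq (GRCm38.p6), 250 bases before to 50 bases after the annotated start, and capitals mark matches, on either strand, to the TATA box TATAAA, the GC box GGGCGG, the ETS core GGAAG, the SOX core ACAAT and the KLF core CACCC, matches of which can overlap.
Gja4, chr4:127313990-127314289, minus strand: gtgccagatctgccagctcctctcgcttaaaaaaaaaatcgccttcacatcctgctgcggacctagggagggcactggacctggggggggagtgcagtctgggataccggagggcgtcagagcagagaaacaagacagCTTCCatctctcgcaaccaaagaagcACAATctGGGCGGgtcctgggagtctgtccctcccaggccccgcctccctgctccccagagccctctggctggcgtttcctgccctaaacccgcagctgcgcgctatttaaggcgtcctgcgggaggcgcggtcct
Gjb2, chr14:57104653-57104952, minus strand: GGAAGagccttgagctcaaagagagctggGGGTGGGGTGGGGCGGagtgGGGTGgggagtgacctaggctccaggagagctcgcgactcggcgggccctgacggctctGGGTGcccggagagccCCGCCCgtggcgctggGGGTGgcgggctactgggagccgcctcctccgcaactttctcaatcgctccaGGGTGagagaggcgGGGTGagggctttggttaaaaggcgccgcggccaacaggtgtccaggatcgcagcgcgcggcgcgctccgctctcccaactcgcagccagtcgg
CACCC stood at 7 positions in the Gjb2 stretch and was not matched in that of Gja4, while ACAAT stood at 1 position in Gja4 and none in Gjb2. Of all 32851 promoter stretches of this length, 57.5% held CACCC and 31.0% held ACAAT, while 35.7% held the GC box, 71.4% the ETS core and 13.6% the TATA box. The stretches were 62% (Gja4) and 70% (Gjb2) G and C, against a median of 52.7%. Promoters of 5 of the 6 connexins were in the table, all but Gjc1.

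Taken as a share of the counts on the 6 connexins in each library, the vascular and tubular groups separated the sample types. The 4 vascular connexins, Gja4 foremost, took 98.1 ± 2.38% in arterioles (94.9 to 99.9) and 90.5 ± 7.38% in glomeruli (82.4 to 99.4). They took 19.5 ± 14.3% in capillaries (6.16 to 33.1), 22.4 ± 26.3% in venules (2.98 to 60.7) and 18.7 ± 3.78% in whole kidney (14.6 to 22.4; SD, n = 4). Every arteriole and glomerular library lay above every library of the other 3 groups, and capillaries, venules and whole kidney overlapped. Venule 96 was the only library of those groups above 50%, with 639 of 1053 counts (60.7%, 95% Wilson interval 57.7 to 63.6).

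Gja4 made up 87.9 ± 12.4% of the connexin counts in arterioles and 71.6 ± 8.43% in glomeruli, and Gjc1 8.35 ± 7.73% and 17.99 ± 12.5%. In whole kidney Gjb2 and Gjb1 made up 43.4 ± 7.90% and 37.9 ± 6.79%, and Gja4, Gjc1 and Gja1 8.68 ± 2.86%, 5.53 ± 1.62% and 4.32 ± 1.34% (SD, n = 4). Capillary and venule libraries differed widely in which tubular connexin led, from 65.4% Gjb2 in capillary 98 (63.0 to 67.7) to 90.9% Gjb1 in venule 100 (86.9 to 93.8; 95% Wilson intervals).

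**Figure D3:**
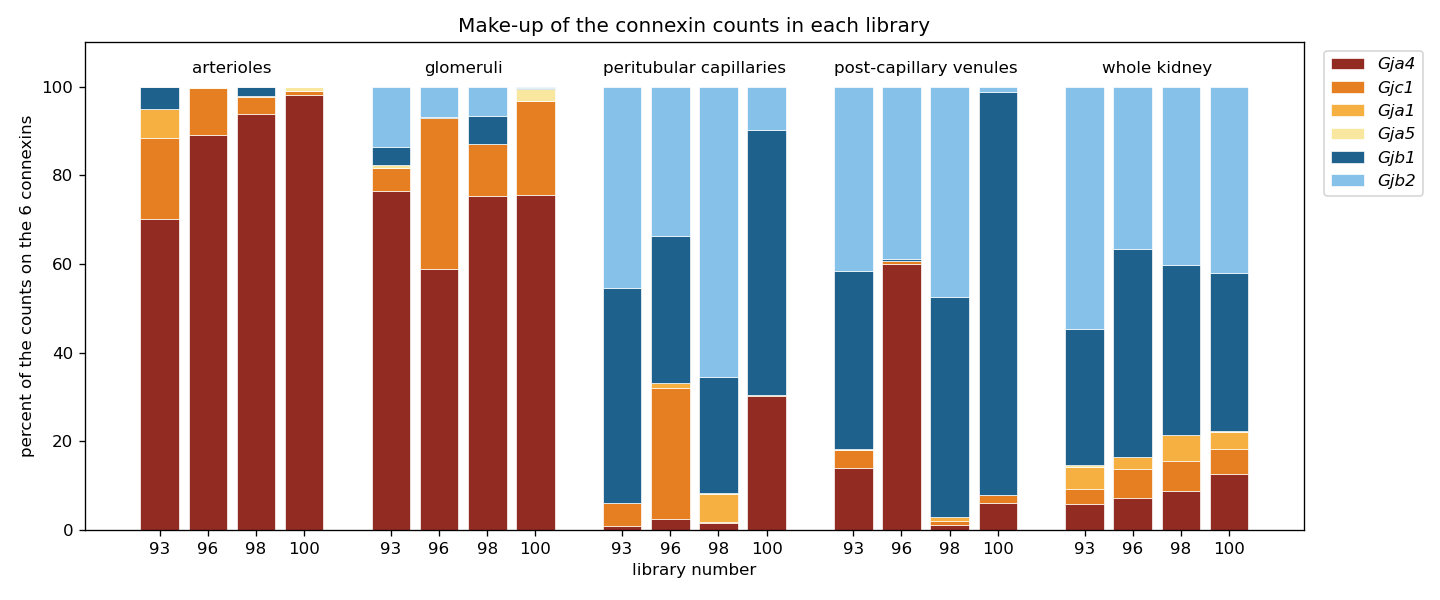
Stacked bars give, for each of the 20 libraries, the percent of the counts on the 6 connexins that fell on each gene, with the vascular genes in warm and the tubular genes in blue colours. The vascular share is 94.9 to 99.9% in arterioles and 82.4 to 99.4% in glomeruli, against at most 60.7% in the other libraries.

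Because groups differed in endothelial content, the vascular connexins were also scaled to the counts on the 15 pan-endothelial genes and the tubular connexins to the 13 proximal tubule genes. Gja4 then stood at 105, 205, 125 and 179 counts per 1000 pan-endothelial counts in arterioles and at 43.4, 35.9, 36.8 and 40.1 in glomeruli. Whole kidney held 12.2, 13.2, 15.9 and 19.2, capillaries 1.58, 4.92, 4.55 and 76.1, and venules 11.9, 52.1, 1.08 and 1.99. Arterioles lay above every other library, at 3.93-fold the glomerular and 10.1-fold the whole kidney mean, and all glomeruli lay above whole kidney, at 2.58-fold. This separation depended on the genes it was scaled to. Per 1000 counts of Pecam1 alone, Gja4 ran from 231 to 1435 in arterioles and from 344 to 475 in glomeruli, which overlapped (1.74-fold, exact two-sided permutation p 0.314, adjusted 0.589), and the highest capillary library stood at 936. Arterioles and glomeruli still lay above whole kidney, at 5.75-fold and 3.31-fold (exact p 0.0286 and adjusted 0.156 for each). The pieces also held cells other than endothelium, so these ratios do not give the Gja4 level per endothelial cell.

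Gjb2 stood at 0.0564 ± 0.0265 counts per 1000 proximal tubule counts in arterioles and 1.03 ± 0.233 in whole kidney (SD, n = 4), and on this scale it was lower in arterioles than in capillaries and glomeruli without overlap. Glomeruli stood at 1.73 ± 1.28, now above the whole kidney mean but with overlap (exact permutation p 0.4). Gjb1 on the same scale stood at 1.60 ± 2.42 in arterioles, with arteriole 93 at 5.14, and at 0.907 ± 0.232 in whole kidney. It stood at 0.644 in glomeruli, 0.909 in capillaries and 1.22 in venules. Gjc1 per 1000 pan-endothelial counts was 14.5 in arterioles, 10.1 in glomeruli, 17.9 in capillaries, 9.76 in whole kidney and 1.39 in venules. The capillary mean rested on capillary 96, at 60.3, with 10.1, 0.568 and 0.794 in capillaries 93, 98 and 100. Gjc1 is the connexin of smooth muscle and mural cells, so its ratio to endothelial counts does not give its level per such cell. Per 1000 counts of Pecam1 alone, the Gjc1 order of arterioles, glomeruli and whole kidney turned. Gjc1 then stood at 40.1 in arterioles, 120 in glomeruli, 264 in capillaries (8.15 to 897), 79.0 in whole kidney and 11.7 in venules. Arterioles were at 0.333 of the glomerular and 0.507 of the whole kidney mean (exact permutation p 0.257 and 0.0857). Of 60 such comparisons, 12 reached an exact two-sided permutation p of 0.0286, the smallest that 4 against 4 libraries allow. With the list sums, none passed the Benjamini-Hochberg adjustment, at 0.143 each, which this design could pass only if more of the 60 reached the smallest p.

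**Figure D4:**
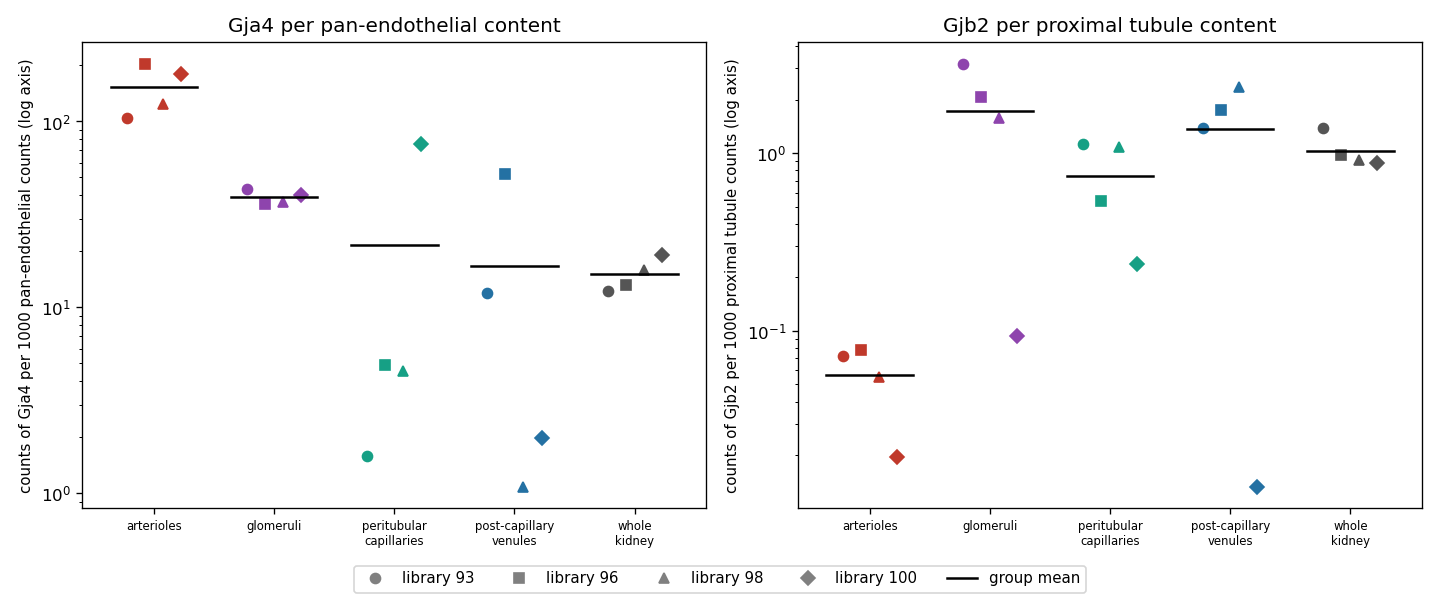
Counts of Gja4 per 1000 pan-endothelial counts (left) and of Gjb2 per 1000 proximal tubule counts (right), on log axes, with points for libraries and lines for group means. Gja4 is at 105 to 205 in arterioles and 35.9 to 43.4 in glomeruli, and Gjb2 has its lowest group mean in arterioles (0.0564), while 1 venule library stands at 0.0132.

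The genes whose log2 CPM ran most like that of a connexin over the 16 microdissected libraries were named among 11343 genes, as a description of libraries that share compartment and depth. For Gja4 they were Myl6 (Pearson r 0.910), a myosin light chain, Egfl7 (0.904), an endothelial matrix factor, Tspan2 (0.901), Tm4sf1 (0.900) and Col18a1 (0.898), a basement membrane collagen. Egfl7, also on the pan-endothelial list, stood at 713 ± 238 CPM in arterioles, 380 ± 107 in glomeruli and 37.6 ± 3.18 in whole kidney, and Tspan2 at 156 ± 56.3, 24.6 ± 10.8 and 1.69 ± 0.559 (SD, n = 4). For Gjc1 the nearest were St6galnac6 (0.874), Lrig3 (0.873), Trpv2 (0.862), Hrct1 (0.849) and Tmem109 (0.835).

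For Gjb2 the nearest were Slc35a3 (Pearson r 0.917), a nucleotide sugar transporter, Ppif (0.910), Nr1h4 (0.895), the bile acid receptor FXR, Igbp1 (0.886) and Tmem37 (0.881), over 16 libraries. For Gjb1 they were Mep1b (0.856), a brush border protease, Nceh1 (0.850), Fmnl1 (0.833), Serpinf2 (0.827) and Sod1 (0.823). Between the connexins themselves, r was 0.58 for Gja4 and Gjc1, 0.49 for Gja4 and Gja5 and 0.42 for Gjb1 and Gjb2. It was -0.62 for Gja4 and Gjb2 and -0.60 for Gja4 and Gjb1.

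The rest of the family was sparse. Of 3 pannexins only Panx1 passed the filter in the 20-library fit, and it was not called against whole kidney. Panx1, a channel protein related in fold to connexins, held 99 counts over glomeruli, 96 of them in glomerular 96, 26 in capillary 98, 1 in venules and none in arterioles.

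Gja3 (Cx46), known as a lens connexin, held 129, 144, 81 and 4 counts in glomeruli (12.9, 15.9, 6.31 and 0.44 CPM). Whole kidney held 5, 2, 5 and 8 counts, all 8 arteriole and capillary libraries held 0, and the venules held 1 count in all. Glomerular 93, 96 and 98 lay above every other library, while glomerular 100 lay within the whole kidney range. The filter left the gene out of both fits. Without the filter it was called in glomeruli against the other 3 compartments (FDR 0.00760) but not against whole kidney (FDR 0.328), and its fold against groups at 0 is not given.

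Of 13 genes for proteins that bind, phosphorylate or turn over connexins, all tested, 2 were called higher in arterioles against whole kidney, none lower, and none was called in the other compartments. They were Akt1, a kinase that phosphorylates Cx43 (231 ± 29.2 against 54.8 ± 4.55 CPM, log2 fold change 2.07, FDR 0.0321), and Nedd4, a ubiquitin ligase of Cx43 (431 ± 147 against 142 ± 18.9 CPM, 1.60, FDR 0.0206; SD, n = 4). Their count compares with 11.3% of all genes called there. The list's median log2 fold change was 1.04, beside 0.22 over all genes tested. Between compartments, Akt1 (2.27, FDR 0.0393) and Cav1, the caveolar scaffold protein (4.49, FDR 0.0220), were higher in arterioles than in capillaries, and Cav1 was higher in arterioles than in the other 3 together (3.56, FDR 0.00374; 161 ± 89.3 CPM).

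The other partners passed no test. The zonula occludens gene Tjp1 stood at 81.8 ± 59.8 CPM in glomeruli and 11.3 ± 2.87 in whole kidney (log2 fold change 2.86, FDR 0.367). The kinase gene Prkca stood at 171 ± 57.8 CPM in glomeruli and 18.3 ± 1.71 in whole kidney (3.22, FDR 0.221). Cnst, which encodes the connexin transport protein consortin, stood at 94.7 ± 90.7 CPM in arterioles and 11.7 ± 2.57 in whole kidney (3.02, FDR 0.153; SD, n = 4). Against whole kidney, Src, Mapk3, Csnk1d, Dbn1 and Ubqln4 had FDR between 0.197 and 1.00 in every compartment.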

How the data were processed

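RNA of microdissected compartments and of whole kidney was made into 3′ mRNA libraries. The authors used bbduk for trimming, STAR for alignment to GRCm38.p6 and htseq-count for counting per gene, and the deposited values are raw counts per gene. The submitters' processing notes list STAR 2.7, HTSeq 0.13, SAMtools 1.9, FastQC 0.11.8, MultiQC 1.7 and featureCounts. Of 168 columns, 148 were not matched to the samples used here and were not used, and 3 lines without a gene name were excluded.

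Genes with low counts were removed with filterByExpr, libraries were scaled by TMM, and comparisons were fitted with the quasi-likelihood test of edgeR 4.0.16 (R 4.3.3) and adjusted by Benjamini-Hochberg over all genes tested. Comparisons with whole kidney used all 20 libraries, in which all 6 connexins passed the filter, and those between compartments used the 16 microdissected libraries, in which 5 did. Calls needed FDR under 0.05, and against whole kidney also a log2 fold change past 1. The fit of arterioles against whole kidney was also run on simulated counts with the same spread in every gene. That run does not speak for genes with counts as uneven as those of Gja1. Content ratios were compared by exact permutation tests (scipy 1.17.1). Genes named beside the connexins were other connexins, pannexins and partners that were called or averaged at least 1 CPM in a group, and the 5 genes most correlated with each connexin that reached a mean of 10 CPM in a compartment. The alternatives were other size factors, no filter, the version 4 form of the test, DESeq2 1.42.0, other sets of libraries, other reference genes, a block for the column number (added later), and each library left out in turn. Wilson intervals (95%) cover counting error only. The connexins and the gene lists were chosen with earlier results of these data known. Results of some genes are not reported here.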

Additional observations from a re-analysis of the deposited data

Results flagged for a closer look

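In 6 of 30 groups of 4 libraries, 1 library stood apart from the rest by Dixon's criterion, which chance gives in about 1 of 20 groups where values are normally distributed, and more readily in skewed counts with zeros. Gja1 stood apart in arteriole 93 (58.0 CPM, the next library at 0.787), in capillary 98 (11.5 CPM, next 1.18) and in venule 98 (1.30 CPM, from 7 counts). Gja4 stood apart in capillary 100 (93.7 CPM, next 2.95). Without that library, Gja4 in glomeruli against capillaries (FDR 0.000268) and in capillaries against the other 3 compartments (FDR 0.000146) was called by edgeR, and with it neither passed in the same filtered fit. With capillary 100 kept, both passed without the filter, in the version 4 form and with a column number block (FDR 0.00148 to 0.0287). Capillaries against the other 3 also passed with DESeq2 (0.0368) and all 20 libraries in the fit (0.0440). Neither passed with other size factors. Arterioles against capillaries kept the Gja4 call in all 8 fits that left out 1 library (FDR 2.95e-06 to 0.00727). Gjc1 stood apart in venule 93 (4.59 CPM, next 1.11). Gja5 did so in venule 93 at 0.112 CPM, which is 1 count against 0 in the other venules.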

How the results depend on the processing

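Of the comparisons recomputed under the alternatives, 1130 kept their call, 47 gained one, 38 lost one and 0 reversed. With RLE size factors the number of connexins called in capillaries against the other 3 compartments went from 1 to 0. Without the filter it went from 0 to 1 in arterioles against glomeruli, glomeruli against capillaries, glomeruli against venules, and venules against the other 3, and from 2 to 1 in arterioles against venules. In the version 4 form it was 1 in arterioles against glomeruli, 2 in glomeruli against capillaries, 1 in glomeruli against venules and 3 in capillaries against the other 3. With DESeq2 it was 2 in arterioles against glomeruli, 1 in glomeruli against capillaries, 1 in glomeruli against venules, 2 in capillaries against the other 3 and 2 in venules against the other 3. With all 20 libraries it was 1 in arterioles against glomeruli, 5 (from 3) in arterioles against the other 3, and 2 in capillaries against the other 3. With only the 8 libraries compared it was 3 (from 1) in glomeruli against whole kidney, 1 in arterioles against glomeruli, 1 in arterioles against venules, where the filter left Gjb2 out, and 1 in glomeruli against capillaries. The cause of the other changes was not tested.

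Leaving out each library in turn gave 2 to 3 called connexins in arterioles and 0 to 1 in glomeruli against whole kidney, and 0 to 0 in capillaries and venules. It gave 2 to 2 in arterioles against capillaries, 1 to 2 against venules and 0 to 0 against glomeruli, 0 to 1 in glomeruli against capillaries or venules, and 0 to 0 in capillaries against venules. Against the other 3 it gave 2 to 4 in arterioles and 0 to 1 in glomeruli, capillaries and venules, and 0 to 0 content ratios passed. RLE size factors moved the median over all genes by 0.17 in arterioles against whole kidney, with 991 genes called higher and 694 lower, against 798 and 760 with TMM, by 0.23 to 0.28 in the other arteriole comparisons and by -0.13 in glomeruli against the other 3. No connexin changed direction under it. The column numbers could not be tied to mice or to the labelled replicate numbers. Deviations of the 40 same-number library pairs from their group means correlated between -0.06 and 0.10 (median 0.01, over 9348 genes). Pairs of other numbers correlated between -0.14 and 0.07 (median -0.005). Of 20 libraries, 16 correlated better on average with their own number than with others. Whether libraries of 1 number came from 1 mouse could not be settled from this. The main fits treated the libraries as unpaired, which would ignore such a pairing. A fit with the column number as a replicate block, added after the data were seen, gave 1 called connexin (from 2) in arterioles against venules, 1 (from 0) in glomeruli against capillaries, 1 (from 3) in arterioles against the other 3 and 2 (from 1) in capillaries against the other 3. Over all genes it called 1737 (from 1558) in arterioles, 23 (from 13) in capillaries against whole kidney and 881 (from 1381) in arterioles against the other 3. Low counts limit Gja1 and Gja5, and Gjb2 in arterioles.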
